A study of Saccharomyces cerevisiae with 7 samples.

Results

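The transcripts of budding yeast cells lacking Arp6 were set against those of cells lacking Swr1, gene by gene, to see where loss of these partners differs. The comparison used the 4 arrays of the arp6 deletion (arp6Δ) and the 3 arrays of the swr1 deletion (swr1Δ), which are all 7 arrays of the series. On each array, Cy5-labelled RNA of the mutant and Cy3-labelled RNA of its wild-type control were hybridised together. Mutants and controls were W303 strains carrying no other mutation in the labels, and all were grown without treatment in YPD, the rich glucose medium, at 25 °C to an optical density of 1. The measure is the log2 ratio of mutant over wild type, and the comparison is the mean over the arp6Δ arrays minus the mean over the swr1Δ arrays. A difference of 1 is thus a 2-fold higher ratio in arp6Δ. It was computed for 5879 features, 5344 named genes and 535 probes without a gene name.

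Swr1 is the ATPase of SWR-C, the chromatin remodeler that exchanges histone H2A in nucleosomes for the variant Htz1 (H2A.Z). Arp6 is an actin-related protein, known as a subunit of that remodeler and needed for its binding of Htz1. The study asked whether Arp6 also acts apart from SWR-C, and a direct comparison of the mutants addresses which transcripts differ between the strains.

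The arrays of arp6Δ spread more widely than those of swr1Δ, with an SD over all features of 0.782 to 1.43 against 0.365 to 0.536. The arp6Δ arrays also fell into pairs. Replicates 1 and 2 had a correlation of 0.665 and replicates 3 and 4 of 0.834, whereas values across the pairs ran from 0.253 to 0.363. Over 3 stretches of the gene order, holding 714 genes or 13.3% of the named genes with values, the value of arp6Δ replicates 1 and 2 on a gene's row matched that of replicates 3 and 4 on the next gene's row better than on the same row, with a correlation of 0.27 against 0.04, so that a gene's own value appears to lie on the row before it. These genes are called displaced here. They entered the comparison as deposited, and a result that rests on one is given with its value moved back, taken from the row before. No such stretch was found between replicates 1 and 2, between replicates 3 and 4, or between the swr1Δ arrays compared. The search set arrays of 1 mutant against each other and looked for long stretches. It cannot see a shift shared by all arp6Δ arrays or one of only a few genes, so misplaced values elsewhere are possible. The deposited ratios carry no intensities, so the signal over background behind each ratio is unknown.

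In 413 of the 5879 features (7.03%) the mutants differed by limma with Benjamini-Hochberg adjustment at 0.05. In 184 (3.13%) the ratio was higher in arp6Δ and in 229 (3.9%) it was lower. The higher group included 68 ribosome biogenesis genes, and the lower group 43 genes of the general stress response and 15 of the respiratory chain and ATP synthase. The median called gene of the higher group stood at 1.01 in arp6Δ and at −0.49 in swr1Δ, on opposite sides of wild type. In the lower group the medians were −1.40 and 0.21, so that its typical gene was well below wild type in arp6Δ and near it in swr1Δ. Of the 184 higher genes, 88 had a swr1Δ mean of −0.5 or below, 96 lay within 0.5 of wild type and 0 were at 0.5 or above. Of the 229 lower genes, 174 lay within 0.5 of wild type in swr1Δ, 52 were at 0.5 or above and 3 at −0.5 or below. Over all 5879 features, 4759 lay within 0.5 of wild type in swr1Δ, 582 at −0.5 or below and 538 at 0.5 or above. Both groups were selected on the difference between the mutants, which itself favours opposite sides, so these splits only describe the called genes. The plot of the mutants' means shows these groups above and below the diagonal.

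**Figure D1:**
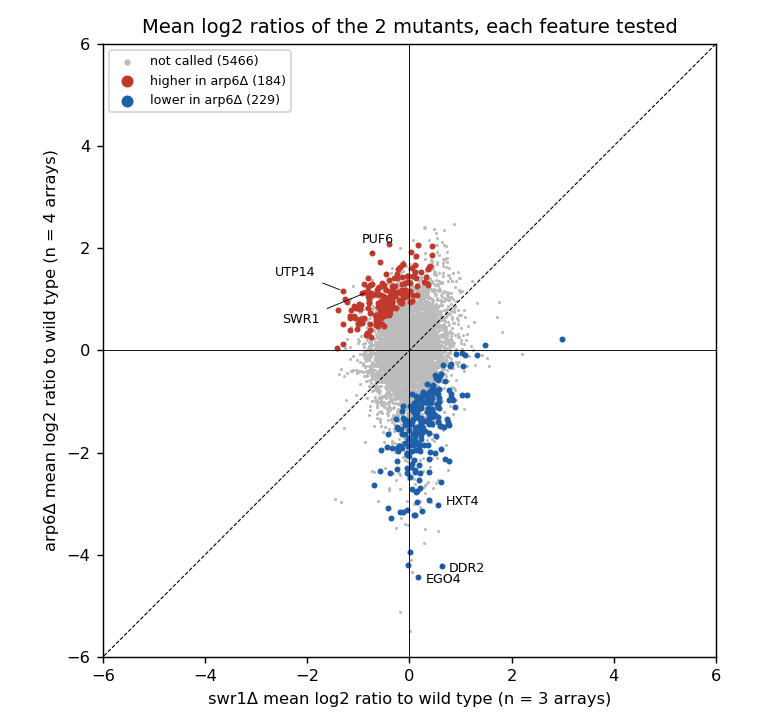
Mean log2 ratio to wild type of each feature tested, in swr1Δ (horizontal, n = 3 arrays) and arp6Δ (vertical, n = 4 arrays), with the dashed line marking equal ratios. The 184 called higher in arp6Δ (red) lie mostly left of the vertical axis, and the 229 called lower (blue) reach down to about −4.45 in arp6Δ while most lie within 0.5 of 0 in swr1Δ.

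The number of genes that passed depended strongly on which arrays were used. Of the 413, 3 had an adjusted p under 0.01 and 13 under 0.02, so most stood close to the threshold. Without any 1 of the swr1Δ arrays 3 features remained, and without arp6Δ replicate 4 there were 5, each time with 0 higher in arp6Δ. At an unadjusted p of 0.05, those 4 settings gave 961 to 1534 features, against 1701 (28.9%) with all arrays. The 3 genes called whichever array was left out were DDR2, EGO4 and FMP16. With errors shared within each pair of arp6Δ arrays, 148 features passed (2.52%), 50 higher (0.85%) and 98 lower (1.67%), and the calls that follow are to be read against these counts.

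**Figure D2:**
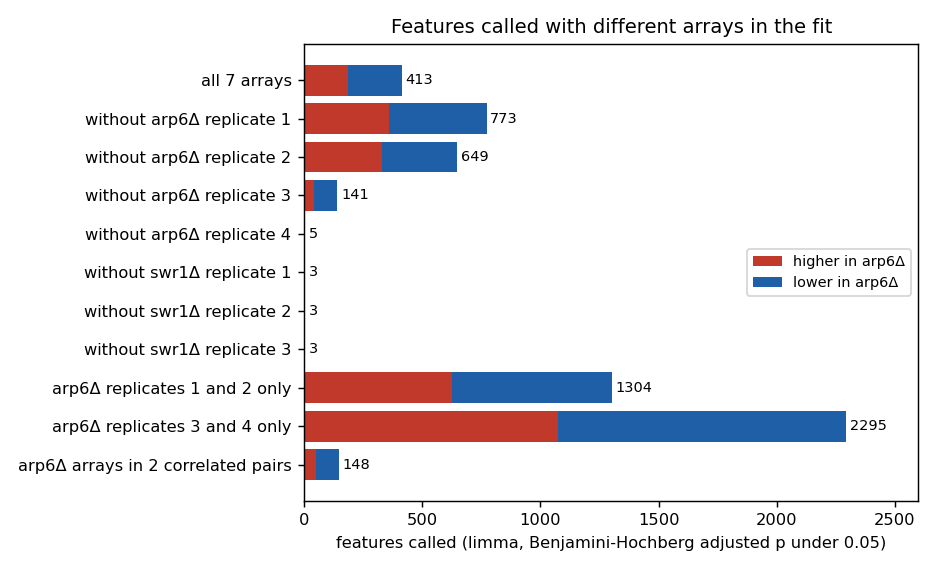
Number of features called (limma, Benjamini-Hochberg adjusted p under 0.05; horizontal axis) with all 7 arrays, without each array in turn, with each pair of arp6Δ arrays alone, and with the pairs treated as correlated. Red is higher and blue lower in arp6Δ; the bars run from 3 to 2295 features.

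The deleted genes came first as a check of the labels. ARP6 (YLR085C) read −1.28, −1.26, −1.19 and −0.63 on arp6Δ replicates 1 to 4, and 0.22, −0.09 and 0.18 on swr1Δ replicates 1 to 3. The groups did not overlap, and the difference was −1.19 ± 0.25 (SE, adjusted p = 0.0376). SWR1 (YDR334W) read 1.40, 1.52, 0.91 and 0.76 in arp6Δ against −0.42, −1.02 and −1.01 in swr1Δ, a difference of 1.96 ± 0.29 (SE, adjusted p = 0.0205). SWR1 was therefore below wild type on each array of its own deletion and above it on every arp6Δ array, and more of its difference came from the arp6Δ side. With paired arp6Δ arrays the adjusted p was 0.0326 for SWR1 and 0.0571 for ARP6. Neither deleted gene disappeared from its arrays, and where their probes lie relative to what was deleted is not known.

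HTZ1 (YOL012C), which encodes the histone variant that SWR-C deposits, read −0.57, −0.50, −0.30 and −0.28 in arp6Δ and 0.17, 0.39 and 0.50 in swr1Δ. Its arrays did not overlap, as was so for 1936 features (32.9%), but the difference of −0.77 ± 0.22 (SE) missed the threshold with an adjusted p of 0.0672. Among the 14 measured genes of SWR-C and HTZ1, only SWR1 and ARP6 themselves passed. The shared subunits RVB1, a AAA+ ATPase, and BDF1, a bromodomain protein, differed by 0.85 (adjusted p = 0.0649) and −0.40 (adjusted p = 0.468). The other histone genes gave no call among 9 measured besides HTZ1, where 7.03% of all features passed. The widest difference was that of the histone H4 gene HHF1, at 1.70 (adjusted p = 0.0754).

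Mating-type genes mark whether the strains compared are of the same cell type. Of the 6 MATa-specific genes measured 0 passed, and of the 4 MATα-specific genes 0 passed, against 7.03% of all features. At that share, few or no calls were likely among so few genes, so these counts do not settle the cell type. The a-factor gene MFA2 stood at 0.65 ± 0.90 (SD, n = 4) in arp6Δ and 1.09 ± 0.57 (SD, n = 3) in swr1Δ. The a-factor receptor gene STE3, an α-cell gene, stood at −1.55 ± 0.69 and −0.29 ± 0.64, and its arrays overlapped. STE3 differed by −1.25 (adjusted p = 0.112).

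Ribosomes are assembled in the nucleolus, where RNA polymerase I makes the ribosomal RNA precursor and a large set of processing and assembly factors, the ribosome biogenesis genes, cut, modify and fold it together with ribosomal proteins. Of 159 ribosome biogenesis genes measured, 68 were higher in arp6Δ than in swr1Δ and 0 were lower, against 3.13% and 3.9% of all features. Their median difference was 1.28, against −0.01 over all features. The arrays of the mutants did not overlap for 118 of them, each with arp6Δ on the higher side, where 16.9% of all features lay that way and 16.1% the other way. For 130 of the 159 the arp6Δ mean was above wild type and the swr1Δ mean below it.

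The 2 sides of that difference were of unlike size. The median over the 159 genes was 1.20, 0.27, 0.78 and 0.94 on the arp6Δ arrays and −0.17, −0.54 and −0.71 on the swr1Δ arrays. Replicate 2 of arp6Δ and replicate 1 of swr1Δ thus stood nearest to wild type, and the groups remained apart. Of the 68 genes called, 45 had a swr1Δ mean of −0.5 or below. The median difference was 1.26 with arp6Δ replicates 1 and 2 alone and 1.35 with replicates 3 and 4 alone, and lay between 1.16 and 1.46 when 1 array was left out. The count of called members was less steady. It was 23 with paired arp6Δ arrays, 70 with the displaced values moved back (7.1% of all features then passed), and 0 to 97 without 1 array. At an unadjusted p of 0.05, 128 of the 159 were higher (15.1% of all features were), and 100 to 133 without 1 array.

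Factors of the small subunit were among the widest differences. UTP14 (YML093W), a subunit of the processome that cuts the precursor of 18S rRNA, read 2.04, 0.59, 0.96 and 1.05 in arp6Δ and −1.52, −0.98 and −1.38 in swr1Δ. Its swr1Δ arrays were all far below wild type, and it differed by 2.46 ± 0.36 (SE, adjusted p = 0.0205). EFG1 (YGR271C-A), needed to mature 18S rRNA, read 1.86, 0.13, 0.71 and 1.30 against −0.76, −1.31 and −1.73, a difference of 2.26 ± 0.44 (SE, adjusted p = 0.0332). On arp6Δ replicate 2 EFG1 was close to wild type, and with paired arrays its adjusted p was 0.0524. KRR1 (YCL059C), another small-subunit factor, stood at 0.52 ± 0.14 (SD, n = 4) in arp6Δ and −1.29 ± 0.50 (SD, n = 3) in swr1Δ, so that most of its difference of 1.82 (adjusted p = 0.0215) lay on the swr1Δ side. It was also counted among the chromosome-end genes below.

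Factors of the large subunit behaved alike in sign. MAK16 (YAL025C) read 2.09, 1.72, 1.47 and 1.61 in arp6Δ and −0.01, −0.61 and −1.10 in swr1Δ. Its arp6Δ arrays lay close together, all at least 1.47 above wild type, and the difference was 2.30 ± 0.31 (SE, adjusted p = 0.0205). PUF6 (YDR496C), an RNA-binding protein of large-subunit assembly that also represses ASH1 mRNA, had the highest difference among the called genes measured on all arrays. It read 1.91, 2.78, 1.20 and 1.75 against −0.14, −0.94 and −1.12 (2.65 ± 0.41, SE, adjusted p = 0.0218). SPB1 (YCL054W), an rRNA methyltransferase, read 2.22, 1.38, 1.14 and 0.90 against −0.36, −0.96 and −1.12 (2.22 ± 0.36, SE, adjusted p = 0.0256). RLP24 (YLR009W), a ribosomal protein-like assembly factor, had a difference of 2.04 ± 0.29 (SE, adjusted p = 0.0205). In swr1Δ all of these were nearest to wild type on replicate 1.

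NOP15 (YNL110C) and RRP14 (YKL082C), further assembly factors, and YBL028C completed the biogenesis genes among the 10 highest differences, at 2.16, 2.20 and 2.19. Their arp6Δ values were uneven: NOP15 read 2.16, 0.06, 0.47 and 1.07, and YBL028C ran from 0.04 on replicate 2 to 2.25 on replicate 1. With paired arrays the adjusted p was 0.0771 for NOP15, 0.0831 for YBL028C and 0.0475 for RRP14, so that only RRP14 of these passed.

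**Figure D3:**
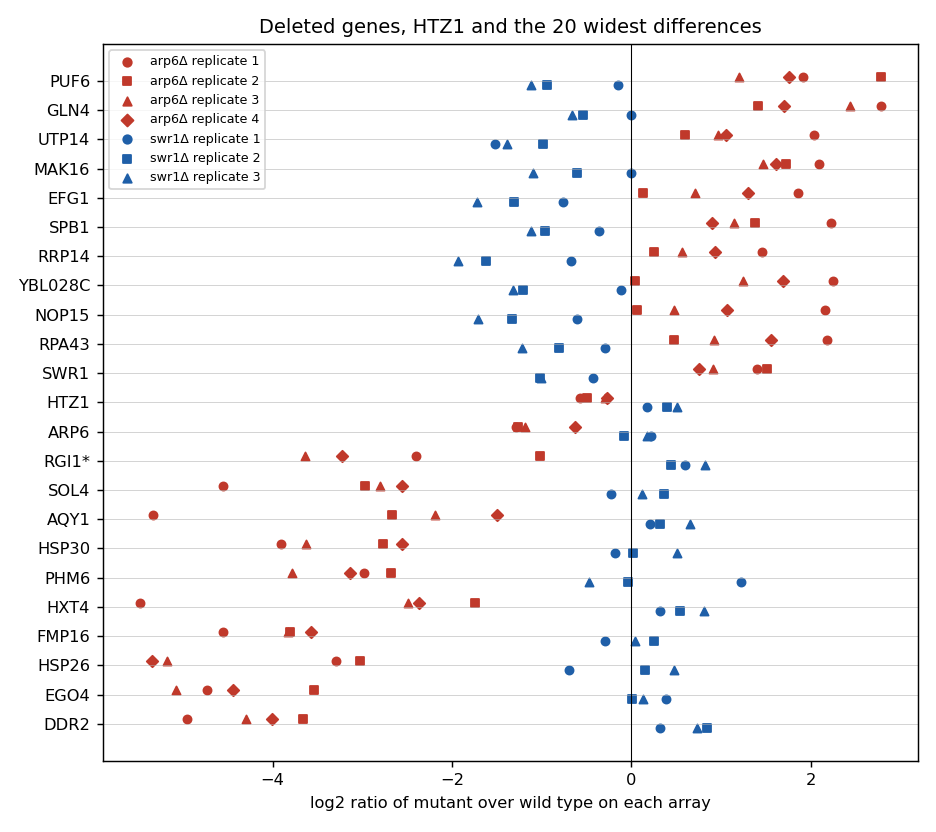
Log2 ratio to wild type on each array (horizontal axis) for ARP6, SWR1, HTZ1 and the 10 highest and 10 lowest differences among called genes measured on all 7 arrays and not overlapping; red is arp6Δ, blue is swr1Δ, a symbol shape is a replicate, and an asterisk marks a displaced gene. From PUF6 down to RPA43 the red points lie above 0 and nearly all blue points below it, while from RGI1 to DDR2 the blue points lie between −0.69 (HSP26) and 1.22 (PHM6) and the red points between −5.48 (HXT4) and −1.02 (RGI1).

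RNA polymerases I and III, which make ribosomal, 5S and transfer RNA, showed a similar pattern. Of 23 subunit genes measured 4 were higher in arp6Δ and 0 lower, against 3.13% and 3.9% of all features. The median difference was 1.02, and 18 had means on opposite sides of wild type. RPA43 (YOR340C), a polymerase I subunit, read 2.19, 0.48, 0.93 and 1.55 in arp6Δ against −0.29, −0.80 and −1.22 in swr1Δ, a difference of 2.06 ± 0.43 (SE, adjusted p = 0.0376). RPA190 (YOR341W), the largest subunit of polymerase I, was tighter, at 0.92 ± 0.19 (SD, n = 4) and −0.15 ± 0.05 (SD, n = 3). Its difference of 1.08 (adjusted p = 0.0348) came almost wholly from arp6Δ. RPA34 and RPC40, the latter shared by both polymerases, differed by 1.71 (adjusted p = 0.0445) and 1.42 (adjusted p = 0.0448). With paired arp6Δ arrays 0 of the 23 passed.

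The ribosomal proteins themselves differed on the arp6Δ side. Of 123 cytosolic ribosomal protein (RP) genes, 20 were higher in arp6Δ and 0 lower (3.13% and 3.9% of all features), and the median difference was 0.92. The median arp6Δ mean was 1.05, and the median swr1Δ mean was 0.17, on the same side of wild type. On single arrays the median was 1.44, 0.59, 0.96 and 1.36 in arp6Δ and 0.31, 0.13 and 0.10 in swr1Δ. Of the 20 called, 17 were within 0.5 of wild type in swr1Δ, and of the biogenesis genes called 23 of 68 were. With paired arrays 8 passed and with displaced values moved back 21.

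RPP1B (YDL130W), an acidic protein of the ribosomal stalk, read 2.55, 1.53, 2.23 and 1.85 in arp6Δ and 0.39, 0.52 and 0.40 in swr1Δ. It was above wild type on every array of both mutants, and by 1.60 ± 0.28 (SE, adjusted p = 0.0277) more in arp6Δ. RPL9A (YGL147C) read 2.66, 1.43, 1.67 and 1.93 against 0.36, −0.24 and −0.01, a difference of 1.89 ± 0.34 (SE, adjusted p = 0.0277). RPS28B (YLR264W) read 2.19, 1.10, 1.71 and 1.71 against 0.10, 0.08 and 0.13, a difference of 1.57 ± 0.28 (SE, adjusted p = 0.0278). In swr1Δ RPL9A lay on both sides of wild type and RPS28B slightly above it on each array.

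Not all RP genes followed this pattern. RPL39 (YJL189W), RPL35B (YDL136W) and RPS17B (YDR447C) were the 3 called members with a swr1Δ mean of −0.5 or below, at −0.52, −0.62 and −0.51. RPS29B (YDL061C) was above wild type in both mutants, at 0.86 ± 0.46 (SD, n = 4) in arp6Δ and 0.89 ± 0.15 (SD, n = 3) in swr1Δ, and the 95% interval of its difference ran from −0.70 to 0.64. The difference was above 0 for 110 of the 123 genes, and 0 of the others passed. The lowest, named after their values were seen, were RPL2A (YFR031C-A) at −1.93 (adjusted p = 0.120), RPS8B (YER102W) at −1.40 (adjusted p = 0.536) and RPP0 (YLR340W) at −0.73 (adjusted p = 0.227). RPL2A and RPS8B are displaced, and RPS8B read −3.57 and −4.04 on arp6Δ replicates 1 and 2 but 1.30 and 1.46 on replicates 3 and 4. Their values moved back are not given here, so RPL2A and RPS8B are not taken as exceptions to the pattern. Many RP genes have a near-identical paralog, and whether their probes tell the copies apart is not known, so the values of single copies are uncertain.

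The displaced genes bore on this set. For the 14 RP genes in the stretches, the median over arp6Δ replicates 1 and 2 was 0.35 on their own row and 1.39 on the row before, while replicates 3 and 4 gave 1.32 on their own row. Elsewhere the RP genes gave 1.02 and 1.08. Of all called features, 11 higher and 31 lower genes lay in the stretches, and with the values moved back 1 and 12 of these passed.

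**Figure D4:**
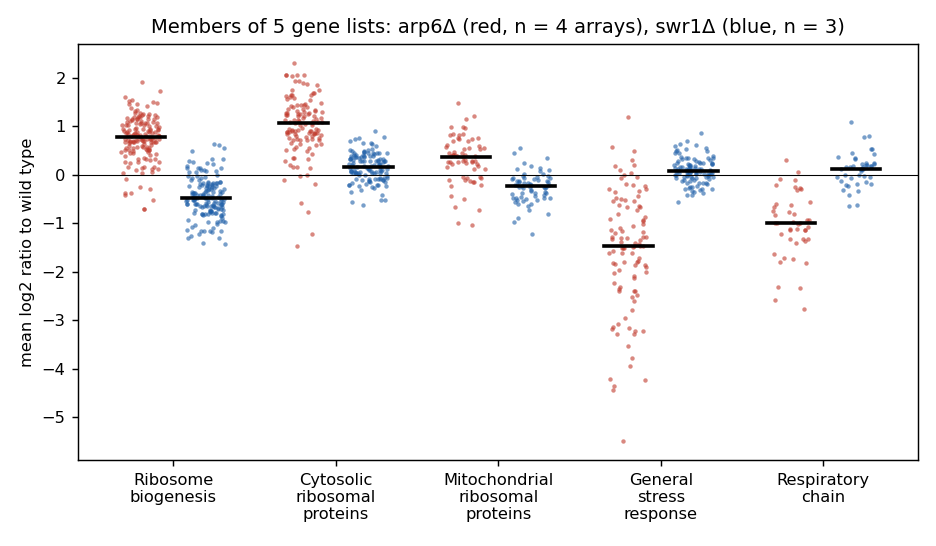
Mean log2 ratio to wild type (vertical axis) of each member of 5 gene lists in arp6Δ (red, n = 4 arrays) and swr1Δ (blue, n = 3 arrays), with black bars at the medians. The medians are 0.78 and −0.48 for ribosome biogenesis and 1.05 and 0.17 for cytosolic ribosomal proteins, and −1.46 and 0.08 for the general stress response.

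Mitochondria have their own ribosomes. Of 66 mitochondrial ribosomal protein genes 10 were higher in arp6Δ and 0 lower, against 3.13% and 3.9% of all features. The median difference was 0.59, and for 39 the means lay on opposite sides of wild type. MRPS17 (YMR188C) read 0.38, 0.95, 0.48 and 0.66 in arp6Δ against −0.59, −1.18 and −1.16 in swr1Δ, a difference of 1.59 ± 0.26 (SE, adjusted p = 0.0256). RSM26 and RSM22, like it of the small subunit, differed by 1.20 (adjusted p = 0.0326) and 1.24 (adjusted p = 0.0341). On arp6Δ replicate 1 the median of the list was −0.07, at the swr1Δ replicate 1 value, and with paired arrays 1 of the 66 passed.

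Other parts of the translation machinery held few calls. Of 44 translation factor genes 3 were higher (6.8%, against 3.13% of all features) and 0 lower (3.9% of all features), with a median difference of 0.62. TIF5 (YPR041W), which encodes initiation factor eIF5, was the steadiest, at 1.19, 1.03, 1.09 and 0.88 in arp6Δ and −0.26, −0.55 and −0.68 in swr1Δ. Its difference was 1.54 ± 0.22 (SE, adjusted p = 0.0205), and it held with paired arrays (adjusted p = 0.0326). TIF35, for a subunit of eIF3, differed by 1.17 (adjusted p = 0.0448), and TIF3, for eIF4B, stood at 0.67 ± 0.47 (SD, n = 4) in arp6Δ and −0.58 ± 0.09 (SD, n = 3) in swr1Δ (adjusted p = 0.0448). With paired arrays TIF35 (adjusted p = 0.0721) and TIF3 (adjusted p = 0.0688) missed the threshold.

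Of 20 aminoacyl-tRNA synthetase genes, which charge tRNAs with amino acids, the row of 1 passed, on the higher side. That is 5% of the list, near the 3.13% of all features. The row of GLN4 (YOR168W), for glutamine, read 2.79, 1.42, 2.44 and 1.70 in arp6Δ and −0.00, −0.53 and −0.66 in swr1Δ, a difference of 2.48 ± 0.38 (SE, adjusted p = 0.0215). The RP gene beside it, RPS28A (YOR167C), read 0.23, −0.37, 0.25 and 0.43 in arp6Δ, unlike its paralog RPS28B, and 0.82, 0.74 and 0.80 in swr1Δ. RPS28A was looked up after the value of GLN4 was seen. Whether the values of these neighbours are on the right gene in the arp6Δ arrays was not settled. The call on this row, also among the 10 highest differences, is therefore not attributed to GLN4 here. The same doubt holds for RPS28A among the RP genes counted above.

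The lower group was led by the general stress response, in which the transcription factors Msn2 and Msn4 turn on genes under heat, oxidative or nutrient stress. The list used here was chosen with earlier results of these data known, and its counts are not counts of Msn2 and Msn4 targets. Of 103 measured, 43 were lower in arp6Δ than in swr1Δ and 0 higher, against 3.9% and 3.13% of all features, with a median difference of −1.50. The median was −1.34, −0.98, −1.66 and −1.47 on the arp6Δ arrays and −0.12, 0.14 and 0.22 on the swr1Δ arrays. The swr1Δ arrays were thus near wild type and the arp6Δ arrays all below them. Of the 43, 39 were within 0.5 of wild type in swr1Δ and 4 at 0.5 or above. With paired arp6Δ arrays 28 passed and with displaced values moved back 44, and without 1 array between 3 and 53. At an unadjusted p of 0.05, 71 of the 103 were lower (13.9% of all features), and 59 to 78 without 1 array.

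DDR2 (YOL052C-A), a gene known to respond to DNA damage and many stresses, had the lowest difference of the called genes measured on all arrays. It read −4.95, −3.66, −4.30 and −4.01 in arp6Δ and 0.31, 0.85 and 0.73 in swr1Δ (−4.86 ± 0.34, SE, adjusted p = 0.00236). EGO4 (YNR034W-A) read −4.73, −3.54, −5.07 and −4.44 against 0.38, 0.01 and 0.12 (−4.62 ± 0.37, SE, adjusted p = 0.00248). FMP16 (YDR070C), whose product was found in mitochondria, read −4.56, −3.81, −3.83 and −3.57 against −0.29, 0.25 and 0.04 (−3.94 ± 0.30, SE, adjusted p = 0.00236). These 3 were the ones that passed without each array in turn.

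Wide differences did not always pass, and in the 2 given here the pairs of arp6Δ arrays differed in size. SIP18 (YMR175W), a desiccation-protective gene, had the widest difference of all features and was named after that was seen. It read −10.8, −7.08, −2.49 and −1.59 in arp6Δ and 0.17, −0.04 and −0.08 in swr1Δ (−5.50 ± 1.99, SE, adjusted p = 0.115). CTT1 (YGR088W), catalase T, read −7.61, −4.83, −2.59 and −2.35 against 0.14, 0.11 and −0.11 (−4.39 ± 1.15, SE, adjusted p = 0.0567). Both were below wild type on every arp6Δ array, and nearer to it on replicates 3 and 4.

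HSP26 (YBR072W), a small heat shock protein, split by pair: it read −3.30, −3.03, −5.17 and −5.34 in arp6Δ and −0.69, 0.15 and 0.47 in swr1Δ, a difference of −4.19 ± 0.64 (SE, adjusted p = 0.0215). HSP30 (YCR021C), a membrane protein that restrains the proton pump Pma1, differed by −3.33 ± 0.38 (SE, adjusted p = 0.0161). SOL4 (YGR248W), of the pentose phosphate pathway, differed by −3.31 ± 0.48 (SE, adjusted p = 0.0205). RGI1 (YER067W), induced in respiratory growth, is a displaced gene. As deposited it differed by −3.19 (adjusted p = 0.0278), and moved back by −2.66 (adjusted p = 0.0679). AQY1 (YPR192W), an aquaporin of spores, had 1 array far from the others, at −5.33, −2.67, −2.19 and −1.50 in arp6Δ, and its difference of −3.31 (adjusted p = 0.0476) had an adjusted p of 0.0688 with paired arrays.

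Trehalose and glycogen are the reserve carbohydrates that yeast lays down as growth slows. Of 24 genes of their metabolism, 8 were lower in arp6Δ and 0 higher, against 3.9% and 3.13% of all features, with a median difference of −1.30. GDB1 (YPR184W), the glycogen debranching enzyme, read −3.16, −2.02, −1.65 and −1.85 in arp6Δ and 0.66, 0.92 and 0.76 in swr1Δ. It was below wild type in one mutant and above it in the other on every array, with a difference of −2.95 ± 0.37 (SE, adjusted p = 0.0198). TSL1 (YML100W), a large subunit of the trehalose synthesis complex, also lay on opposite sides, at −1.48 ± 0.61 (SD, n = 4) and 0.61 ± 0.29 (SD, n = 3), with an adjusted p of 0.0264. TPS1 (YBR126C), its synthase subunit, differed by −1.85 ± 0.26 (SE, adjusted p = 0.0205), and glycogen phosphorylase GPH1 by −2.49 (adjusted p = 0.0412). PGM2 (YMR105C), the main phosphoglucomutase, was low in swr1Δ replicate 1 too, at −1.51 against 0.24 and 0.22 on the others, and differed by −2.92 (adjusted p = 0.0264). With paired arrays 5 of the 24 passed.

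Respiration followed. Of 45 genes of the respiratory chain and ATP synthase, 15 were lower in arp6Δ and 0 higher, against 3.9% and 3.13% of all features. The median difference was −1.19. Single-array medians were −1.35, −0.60, −1.12 and −1.08 in arp6Δ and 0.01, 0.15 and 0.21 in swr1Δ, which did not overlap. COX4 (YGL187C), a subunit of cytochrome c oxidase, read −2.80, −1.45, −2.61 and −2.39 against −0.24, −0.03 and 0.12 (−2.26 ± 0.35, SE, adjusted p = 0.0215). QCR7 (YDR529C), of complex III, differed by −1.34 ± 0.22 (SE, adjusted p = 0.0264), and ATP1, the α subunit of the F1 ATPase, by −1.99 (adjusted p = 0.0264). GUT2 (YIL155C), mitochondrial glycerol-3-phosphate dehydrogenase, is displaced, and differed by −1.59 (adjusted p = 0.0205) as deposited and −1.54 (adjusted p = 0.0213) moved back. With paired arrays 5 of the 45 passed.

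Of 32 genes of the tricarboxylic acid and glyoxylate cycles, 5 were lower and 0 higher, against 3.9% and 3.13% of all features. The median difference was −1.10. MDH2 (YOL126C), cytosolic malate dehydrogenase, differed by −1.94 ± 0.31 (SE, adjusted p = 0.0228). KGD2 (YDR148C), of the 2-oxoglutarate dehydrogenase complex, had values on arp6Δ replicates 3 and 4 alone, −1.74 and −2.02, and differed by −1.86 (adjusted p = 0.0319). SDH4 (YDR178W), the membrane anchor of succinate dehydrogenase, was below wild type in arp6Δ, at −0.97 ± 0.42 (SD, n = 4), and above it in swr1Δ, at 0.77 ± 0.44 (SD, n = 3), with an adjusted p of 0.0292. With paired arrays 3 of the 32 passed.

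The glycolytic genes had a median difference of −0.04, but its sign depended on the pair of arp6Δ arrays. It was 0.42 with replicates 1 and 2 alone and −0.41 with replicates 3 and 4 alone. With all arrays, 3 of 28 measured were lower (10.7%, against 3.9% of all features) and 0 higher (against 3.13%). The 3 were GPM2 (YDL021W), a homolog of phosphoglycerate mutase, at −1.94 (adjusted p = 0.0247), TDH1 (YJL052W), the stress-regulated isozyme of glyceraldehyde-3-phosphate dehydrogenase, at −1.52 (adjusted p = 0.0412), and glucokinase GLK1 (YCL040W), at −1.20 (adjusted p = 0.0412), and 1 of them passed with paired arrays. Hexose transporters stood apart from glycolysis, with 4 of 24 lower and 0 higher, against 3.9% and 3.13% of all features, and a median difference of −1.11. For these the swr1Δ median was 0.45 and 22 of 24 had a swr1Δ mean above 0.

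HXT4 (YHR092C), a glucose transporter gene of low-glucose conditions, read −5.48, −1.75, −2.50 and −2.37 in arp6Δ and 0.32, 0.55 and 0.81 in swr1Δ. Replicate 1 was far below the others, and the difference of −3.58 ± 0.80 (SE) had an adjusted p of 0.0412, or 0.0688 with paired arrays. HXT11 and HXT15, which have close homologs in the same family, differed by −1.77 (adjusted p = 0.0412) and −1.21 (adjusted p = 0.0404), and with paired arrays 0 of the 24 passed.

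In the phosphate response, 5 of 29 genes were lower in arp6Δ and 0 higher, against 3.9% and 3.13% of all features, with a median difference of −0.97. PHM6 (YDR281C), known to be regulated by phosphate, read −2.98, −2.68, −3.78 and −3.14 in arp6Δ and 1.22, −0.03 and −0.47 in swr1Δ, a difference of −3.38 ± 0.44 (SE, adjusted p = 0.0205). PHO8 (YDR481C), the vacuolar alkaline phosphatase, read −2.07, −1.32, −2.53 and −2.35 against −0.08, 0.06 and −0.01, a difference of −2.06 ± 0.32 (SE, adjusted p = 0.0215). PHM8 (YER037W), a phosphatase gene in a displaced stretch with no value on arp6Δ replicates 1 and 2, differed by −2.66 (adjusted p = 0.028), or −1.40 (adjusted p = 0.255) with values moved back. The list median was −0.47 and −0.07 on arp6Δ replicates 1 and 2 but −1.34 and −1.60 on replicates 3 and 4, so that its size depended on the pair, and with paired arrays 3 of the 29 passed.

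**Figure D5:**
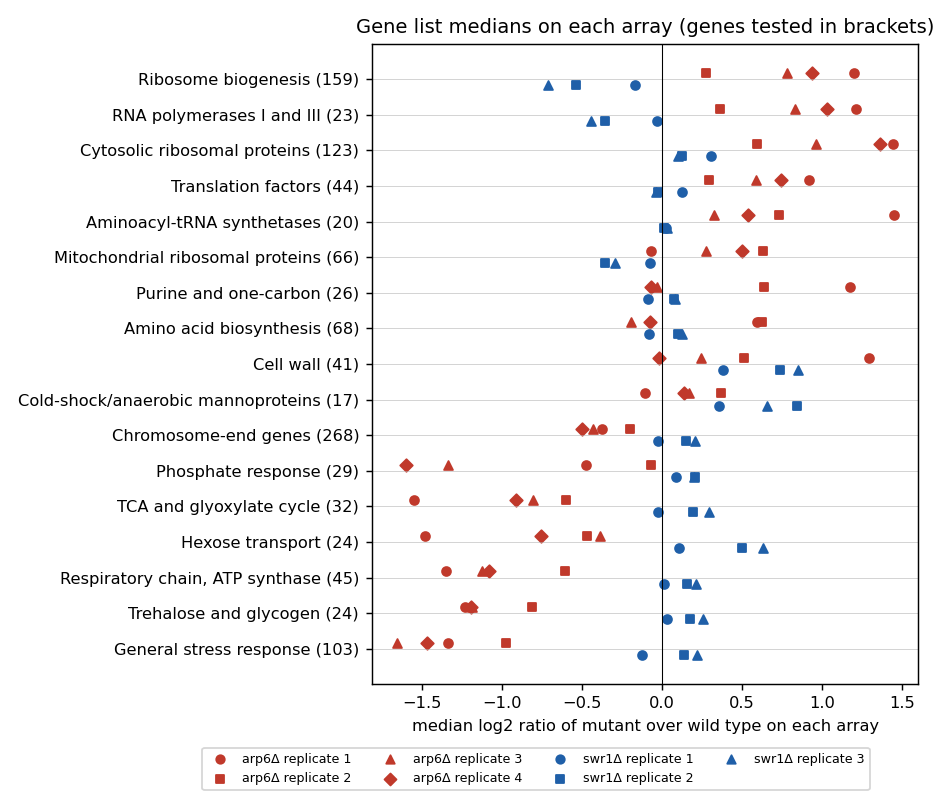
Median log2 ratio of mutant over wild type on each array (horizontal axis) for 17 gene lists, with the number of genes tested in brackets; red is arp6Δ, blue is swr1Δ and the symbol shape is the replicate. Red and blue do not overlap for ribosome biogenesis or for the general stress response, while for amino acid biosynthesis the red points of replicates 1 and 2, at 0.59 and 0.63, lie apart from those of replicates 3 and 4, at −0.19 and −0.08.

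Chaperone genes were divided. Of 54 measured 3 were higher (5.6%, against 3.13% of all features) and 7 lower (13.0%, against 3.9%), with a median difference of −0.10. The 7 included heat-inducible HSP104 (YLL026W), the disaggregase, at −2.28, −2.14, −2.73 and −2.46 in arp6Δ and −0.48, −0.37 and −0.29 in swr1Δ, both below wild type and −2.03 ± 0.23 (SE, adjusted p = 0.0161) apart. Of the 3 higher ones, 2 encode subunits of prefoldin, which hands actin and tubulin to the chaperonin. YKE2 (YLR200W) read 1.05, −0.01, 0.08 and 0.57 in arp6Δ against −0.58, −1.03 and −1.48 in swr1Δ (1.46 ± 0.34, SE, adjusted p = 0.0448). GIM4 (YEL003W) stood at 0.55 ± 0.36 (SD, n = 4) against −0.94 ± 0.17 (SD, n = 3). It is displaced, and its difference was 1.50 (adjusted p = 0.0277) as deposited and 0.84 (adjusted p = 0.218) moved back. With paired arrays 1 was higher and 2 lower.

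The study also looked at Arp6 near telomeres, and genes near chromosome ends were taken here as the 10 nearest each end in the gene table. Of 268 measured, 21 were lower in arp6Δ and 5 higher, against 3.9% and 3.13% of all features, and the median difference was −0.54. The arp6Δ mean was below wild type and the swr1Δ mean above it for 112. The called ones were of mixed role. MSC1 (YML128C), also a stress gene, differed by −2.99 (adjusted p = 0.0215), and KGD4 (YFR049W), of the 2-oxoglutarate dehydrogenase complex and displaced, by −1.72 (adjusted p = 0.0205), or −1.49 (adjusted p = 0.0264) moved back. YML133C, a subtelomeric gene with near-identical copies, read −1.29, −1.23, −0.80 and −1.11 in arp6Δ and 0.19, 0.63 and 0.87 in swr1Δ, a difference of −1.67 ± 0.26 (SE, adjusted p = 0.0215). Probes for such repeats cannot be tied to 1 copy. With paired arrays 9 were lower and 3 higher.

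Called genes near wild type in arp6Δ were few. Of the 413 features, 24 had an arp6Δ mean within 0.5 of wild type, 11 of them in the higher and 13 in the lower group, and 22 of these were named genes. The 10 named ones low in swr1Δ were led by FYV7 (YLR068W), a factor of 18S rRNA processing. FYV7 read 0.39, −0.24, −0.19 and 0.22 in arp6Δ and −0.90, −1.47 and −1.89 in swr1Δ, a difference of 1.46 ± 0.31 (SE, adjusted p = 0.0375). SAS10 (YDL153C), a subunit of the small-subunit processome, read 0.19, 0.16, 0.60 and 0.61 against −0.74, −1.19 and −1.54 (1.55 ± 0.27, SE, adjusted p = 0.0274), and passed with paired arrays (adjusted p = 0.0413). SOV1, a mitochondrial protein, and BUD27, related to prefoldin, had swr1Δ means of −0.85 and −0.84. BUD27 is displaced, and its difference of 1.19 (adjusted p = 0.0448) became 1.76 (adjusted p = 0.0667) moved back. With paired arrays FYV7 (adjusted p = 0.0571), SOV1 (adjusted p = 0.0697) and BUD27 (adjusted p = 0.0716) missed the threshold.

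The 12 named ones high in swr1Δ were led by ECM30 (YLR436C), which had 2 values in that mutant, 4.04 and 1.93, against 0.16, 0.26, 0.07 and 0.40 in arp6Δ. Its difference of −2.76 ± 0.54 (SE) had an adjusted p of 0.0375, or 0.0508 with paired arrays. ATP15 (YPL271W), the ε subunit of the F1 ATPase, read −0.42, 0.12, 0.06 and −0.13 in arp6Δ and 0.75, 1.20 and 1.34 in swr1Δ (−1.19 ± 0.25, SE, adjusted p = 0.0386). Its arp6Δ arrays straddled wild type, unlike those of COX4, QCR7 and ATP1. SNA2 (YDR525W-A), SMX3 (YPR182W), for the spliceosomal protein SmF, and AVT6 (YER119C), a vacuolar amino acid exporter, had swr1Δ means of 1.31, 1.02 and 1.06. AVT6 is displaced, and differed by −1.37 (adjusted p = 0.0351) as deposited and −1.64 (adjusted p = 0.0398) moved back. With paired arrays ATP15 (adjusted p = 0.0609), SNA2 (adjusted p = 0.0609), SMX3 (adjusted p = 0.0719) and AVT6 (adjusted p = 0.0508) also missed the threshold.

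Genes on opposite sides of wild type were more common among the called ones, which were selected on the difference. With both means at least 0.5 from wild type and of opposite sign, 76 named genes were higher in arp6Δ and 35 were lower. The 5 highest were PUF6, UTP14, MAK16, EFG1 and SPB1, all ribosome biogenesis factors. The 5 lowest were DDR2, HXT4, RGI1, GDB1 and SPI1. SPI1 (YER150W), a cell wall protein induced in stationary phase, is displaced and had values on arp6Δ replicates 3 and 4 alone, −2.22 and −2.03, against −0.06, 1.05 and 1.07 in swr1Δ. Its difference was −2.81 (adjusted p = 0.0292) as deposited and −1.95 (adjusted p = 0.0667) moved back.

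Few genes could be shown to lie close in both mutants while away from wild type. The median half-width of the 95% interval of a difference was 0.75, and for 1544 features (26.3%) the whole interval lay within 1 of 0. With both means at least 0.7 from wild type on the same side, 15 named genes above and 3 below had such an interval. Among those above were VMA3 (YEL027W), the proteolipid subunit of the vacuolar ATPase, DPM1 (YPR183W), dolichol phosphate mannose synthase, SSH1 (YBR283C), a subunit of an endoplasmic reticulum translocon, MMF1 (YIL051C), a mitochondrial protein, and RPS29B. SSH1 read 1.48, 0.70, 0.75 and 0.43 in arp6Δ and 0.65, 0.90 and 0.91 in swr1Δ, and its interval ran from −0.65 to 0.69. VMA3 and MMF1 are displaced. Moved back, VMA3 differed by −0.13 (adjusted p = 0.799), and MMF1, at 0.38 in arp6Δ and −0.39 (adjusted p = 0.309) from swr1Δ, no longer met the minimum of 0.7. As deposited, the interval of VMA3 ran from −0.77 to 0.65, and that of DPM1 from −0.90 to 0.80. The 3 below were SOR2 (YDL246C), a sorbitol dehydrogenase, CSI1 (YMR025W), a subunit of the COP9 signalosome, and AIM41 (YOR215C), with intervals from −0.81 to 0.68, −0.56 to 0.68 and −0.92 to 0.42. The mutants' controls may share wild-type RNA, so that a shared side of wild type is a description only.

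Of cell wall genes, 36 of 41 had a swr1Δ mean above wild type and 32 an arp6Δ mean above it. The median difference was −0.09 with all arrays. It was 0.29 with arp6Δ replicates 1 and 2 alone and −0.52 with replicates 3 and 4 alone. PIR3 (YKL163W), a covalently bound wall protein, was the 1 member called, at −1.42 (adjusted p = 0.0421). That is 2.4% of the list, against 3.9% of all features lower in arp6Δ. All 17 cold-shock and anaerobic mannoproteins had a swr1Δ mean above wild type and 9 had an arp6Δ mean above it, with a median difference of −0.57 and 0 calls in either direction. At an unadjusted p of 0.05, 5 of the 17 were lower and 2 higher, against 13.9% and 15.1% of all features. PAU6 (YNR076W), of the seripauperin family, whose members are near-identical, read −0.38, −0.40, −0.41 and −0.56 in arp6Δ and 0.09, 0.82 and 0.52 in swr1Δ (−0.91 ± 0.24, SE, adjusted p = 0.0586).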

How the data were processed

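The authors deposited, for each of 7 dual-colour arrays, log2 ratios of mutant (Cy5) over wild type (Cy3), already normalised and centred near 0. No array had the dyes reversed, and a fixed dye effect drops out of the comparison. Background correction and normalisation: not given in the sources used here. The labels name 25 °C and hot phenol extraction, and the methods another temperature and reagent. The methods state independent cultures, 3 or more, but not whether arp6Δ arrays share one. Of 6912 probes, 5945 had values. Probes were named through the platform annotation (1 symbol for 5446 probes, none listed for 1466), and for 20 genes probes were averaged. Features with values on 2 or more arrays per mutant were fitted with lmFit and eBayes (limma 3.58.1, R 4.3.3) over all 7 arrays, with 1 mean per mutant, 2-sided tests, Benjamini-Hochberg adjustment over 5879 features and a threshold of 0.05. The prior had 3.20 degrees of freedom. The fit pools the spread, whose median was 0.52 in arp6Δ and 0.20 in swr1Δ. The script was tested on simulated data. Displaced stretches were found by a search for the gene offset at which replicates 1 and 2 best match replicates 3 and 4 of arp6Δ, and their ends are estimates. Moving values back gives each gene the values of the row before it. Paired arrays were fitted with duplicateCorrelation (0.238 within pairs). Genes and lists were chosen with earlier results of these data known: the deleted genes and HTZ1, the 10 highest and lowest differences, 5 genes a direction by opposite sign, by swr1Δ alone or by likeness, and the 3 smallest adjusted p in each list. Other genes were named after their values were seen. Python 3.11.15 and matplotlib 3.10.9 prepared tables and plots.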

Additional observations from a re-analysis of the deposited data

Results flagged for a closer look

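In groups of 4 arrays, 121 sets of arp6Δ values (the 88 genes chosen by rule and the medians of 33 gene lists) were searched for 1 array far from the other 3. Chance sets such an array apart in about 1 group in 20, and 4 were found here. ARP6 itself read −0.63 on arp6Δ replicate 4, above the other 3 arrays of its own deletion. The median of the trehalose and glycogen genes was −0.81 on arp6Δ replicate 2, nearer to wild type than on the other 3. The median of 50 meiosis and sporulation genes was −0.14 on replicate 3, the highest of the 4. The median of the glycolysis and fermentation genes was 1.57 on replicate 1, while the other arp6Δ arrays lay between −0.14 and 0.05.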

How the results depend on the processing

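Of 413 features called, 184 were higher and 229 lower. None of the alternatives tried (single probes were not repeated per gene) reversed a called gene chosen by rule. The uncalled genes close in both mutants changed sign, AIM41 from −0.41 to 0.54 for example. Over all 88 genes chosen by rule, 595 of 2081 repeat values lost the call. The 2081 include repeats of genes not called with all arrays, which had no call to lose, so the share among called genes was larger. Quantile normalisation gave 1214 (662 higher, 552 lower, 54.5% higher against 44.6%), scaling to 1 median absolute deviation 1143 (588 and 555), array weights 2653 (1302 and 1351), and arp6Δ replicates 1 and 2 or 3 and 4 alone 1304 (626 and 678) or 2295 (1076 and 1219). Paired arp6Δ arrays gave 148 (50 and 98), and with displaced values moved back as well, chosen after seeing the data, 140 (46 and 94). The methods' t-test gave 1522 (807 and 715) at its unadjusted threshold and fold change and 0 (0 and 0) after adjustment, with 1539 at an unadjusted p of 0.05. Same-numbered arrays did not deviate together (correlations of 0.010, 0.080 and −0.048), and with replicate number as a block 2 features passed (0 higher, 2 lower), DDR2 and FMP16, 1391 at an unadjusted p of 0.05. Without 1 array the count ran from 3 to 773, 0 to 360 higher and 3 to 413 lower. The cause was not tested. Filters, centring, a robust prior, single probes, displaced genes left out or moved back, and a minimum difference of 1 kept the count within 385 to 417. List medians moved beyond their spread in 15 of 330 repeats. With quantile normalisation these were trehalose and glycogen (−1.04), mannoproteins (−0.91), chaperones (0.037, from −0.10) and nuclear pore (0.064). With arp6Δ replicates 1 and 2 they were ergosterol (0.27, from −0.17), nuclear pore (0.29) and G1/S (0.48), and with replicates 3 and 4 phosphate (−1.76), chaperones (0.047), SWR-C (0.32, from −0.04) and G1/S (0.11). Without 1 array the sulfur median ran from −0.36 to −0.026 and that of haploid-specific genes from −0.25 to −0.020.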

Other observations

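Some gene groups differed between the pairs of arp6Δ arrays more than between the mutants. The amino acid biosynthesis genes had a median difference from swr1Δ of 0.59 with arp6Δ replicates 1 and 2 alone and −0.12 with replicates 3 and 4 alone. Of the 68 measured, 17 are displaced, which bears on replicates 1 and 2. Moving values back changed the median with all arrays from 0.26 to 0.13. With all arrays 1 of 68 was higher and 1 lower, against 3.13% and 3.9% of all features. The higher was ARG3 (YJL088W), the ornithine carbamoyltransferase of arginine synthesis, and the lower ARO9 (YHR137W), the aromatic aminotransferase. ARG3 read 1.31, 1.50, 0.92 and 0.92 in arp6Δ against −0.19, 0.03 and 0.20 in swr1Δ (adjusted p = 0.0391). ARO9 read −1.73, −1.06, −1.32 and −1.29 against 0.83, 0.47 and 0.93 (adjusted p = 0.0171). Both thus had arrays of one sign in arp6Δ although their list did not.

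Purine and one-carbon genes had median differences of 0.93 and 0.05 with the first and the second pair. GUA1 (YMR217W), GMP synthase, was the 1 of 26 called, at 1.37 (adjusted p = 0.0476). That is 3.8% of the list, near the 3.13% of all features higher in arp6Δ. Proteasome genes gave 0.58 and −0.02, with 0 of 35 called, against 7.03% of all features, and 11 of the 35 are displaced. Thiamine genes gave 1.75 and 0.42, and 2 of 22 were higher (9.1%, against 3.13% of all features). These were SNZ2 and SNO2, at 1.31 (adjusted p = 0.0412) and 1.33 (adjusted p = 0.0295), and both have near-identical copies. Nuclear pore genes had a median difference of 0.18, and 2 of 46 were higher (4.3%, near the 3.13% of all features). NUP60 (YAR002W), of the nuclear basket, read 1.31, 1.00, 0.87 and 0.93 in arp6Δ against 0.06, −0.25 and −0.20 in swr1Δ (1.16 ± 0.22, SE; adjusted p = 0.0333, or 0.0504 with paired arrays). MLP2 (YIL149C), of the same structure and displaced, differed by 1.23 (adjusted p = 0.0448) as deposited and 1.29 (adjusted p = 0.0881) moved back.

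Of the 10 galactose genes, with a median difference of −0.65, 1 was higher and 2 were lower, against 3.13% and 3.9% of all features. GAL1 (YBR020W), galactokinase, was higher in arp6Δ by 1.10 (adjusted p = 0.0418), while GCY1 (YOR120W) and PGM2 (YMR105C) differed by −1.41 (adjusted p = 0.0381) and −2.92 (adjusted p = 0.0264). With paired arrays GAL1 (adjusted p = 0.0697) and GCY1 (adjusted p = 0.0521) missed the threshold. In the ergosterol list, ERG28 (YER044C), displaced, was the 1 of 25 called, at −1.37 (adjusted p = 0.0333) as deposited and −1.34 (adjusted p = 0.0443) moved back. That is 4% of the list, near the 3.9% of all features lower in arp6Δ. SPS100 (YHR139C), a spore wall gene, was the 1 of 50 meiosis and sporulation genes called (2%, against 3.9%), at −3.10 (adjusted p = 0.047). No member was called among 41 G1/S and DNA replication, 31 sulfur, 29 iron uptake and 17 haploid-specific genes. By limma at an unadjusted p of 0.05, 3, 2, 2 and 3 of these were higher and 4, 5, 2 and 0 lower. Over all features the shares were 15.1% higher and 13.9% lower, so these counts are not read as a result about the lists. ZAP1 (YJL056C), the zinc-responsive transcription factor, was looked at because it was among the 5 genes that passed without arp6Δ replicate 4, and differed by −2.29 (adjusted p = 0.0161).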
